A study of Arabidopsis thaliana with 11 samples.

Results

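Wild-type Arabidopsis seedlings that had been in estradiol for 8 h were compared with those that had been in it for 6 h, over every gene. The 4 libraries that make this comparison, 2 of WT 6 h and 2 of WT 8 h, are part of 11 libraries in 6 groups and were chosen by line and hour alone. WT is Columbia (Col) and carries no transgene. Seedlings were 4 days old, grown in light and collected whole. Both groups had 10 µM beta-estradiol, so the treatment is the same in both and only its duration differs. The other treated line, iSPCH, carries ESTpro:SPCH1-4A-YFP, an estradiol-driven and tagged form of SPEECHLESS, the transcription factor that starts the stomatal lineage. Its 2 libraries at 6 h and 2 at 8 h serve here as a second set of seedlings over the same hours. No mock-treated group at 6 h or 8 h is analysed here, so hours in estradiol, time of day and age cannot be told apart. Within a group the letters A and B tell the libraries apart, and A is the one with more assigned reads. The letters do not give the replicate numbers of the labels.

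Seedlings keep time with a circadian clock, a loop of repressors in which the morning genes LHY and CCA1 are succeeded by evening genes such as TOC1, LUX and GI. They also adjust their metal proteins to the copper supply. Background work in Arabidopsis has the transcription factor SPL7 bind GTAC cores in promoters when copper is scarce, which raises copper transporters, the iron superoxide dismutase FSD1 and the microRNA miR398. That microRNA in turn targets the transcripts of the copper/zinc superoxide dismutases CSD1 and CSD2 and of CCS, the chaperone that loads them with copper. Both kinds of superoxide dismutase remove superoxide, one with iron and the other with copper and zinc at the active site.

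Between 6 h and 8 h 81 of 19681 tested genes passed an FDR of 0.05 (limma-trend), 0.412% of those tested. Of these, 40 were higher at 8 h (0.203%) and 41 lower (0.208%). The changes were mostly small. At least a 2-fold change was seen in 10 called genes (0.0508% of tested genes), 5 in each direction, and the median log2 change was 0.63 for the higher genes and -0.61 for the lower ones. The standard error of a gene's log2 change had a median of 0.12. In all 81 called genes both 8 h libraries lay beyond both 6 h libraries, as they did in 8750 genes, or 44.5%, of all those tested. An unadjusted p under 0.05 was found for 2049 genes (10.4%), 983 higher (4.99%) and 1066 lower (5.42%). Leaving out WT 6 h A gave 27 calls and leaving out WT 6 h B gave 6. Leaving out WT 8 h A gave 5 and leaving out WT 8 h B gave 145, and all 81 genes kept their direction in these 4 fits. That direction was fixed in advance, because both 8 h libraries lay beyond both 6 h libraries in each of the 81 genes. Whether libraries of one group are from different batches of seedlings is not in the labels, and every p here therefore reflects only how much these particular samples varied.

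**Figure D1:**
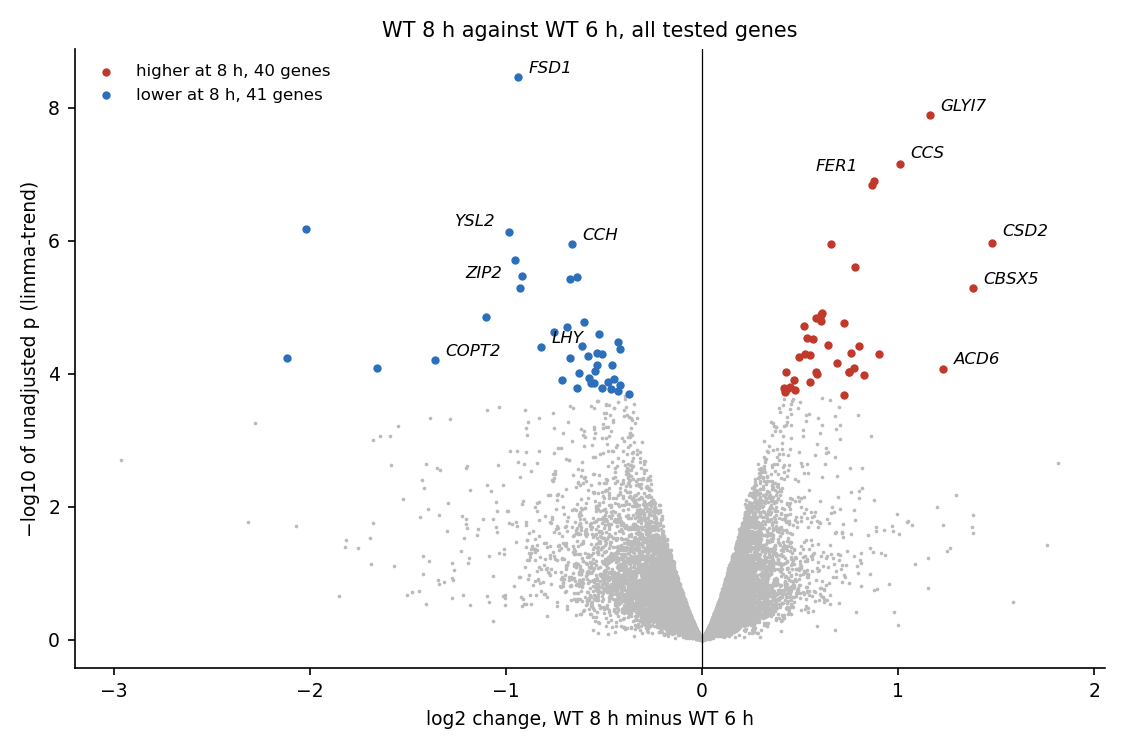
Each point is 1 of 19681 tested genes, placed by its log2 change from WT 6 h to WT 8 h (horizontal axis) and by the −log10 of its unadjusted p from limma-trend (vertical axis). The 40 genes called higher are red and the 41 called lower are blue, with FSD1 highest on the left and GLYI7 on the right.

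Genes for superoxide dismutases, copper chaperones and metal transporters were among the called genes with the smallest p, in both directions. FSD1 and the genes for a copper chaperone and 3 metal transporters fell, while CSD1, CSD2 and CCS rose. The sequences that background work describes for such genes are shown first, and their part in these changes was not tested. The 3 mature miR398 sequences in the TAIR10.1 annotation share 1 seed, bases 2 to 8, in capitals here.

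ath-miR398a-3p: uGUGUUCUcaggucaccccuu
ath-miR398b-3p: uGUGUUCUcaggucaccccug
ath-miR398c-3p: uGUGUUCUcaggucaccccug

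Each best site for miR398 in CSD1, CCS and CSD2 was located in the spliced transcript by pairing without gaps or bulges. Each is written 5′ to 3′, with bases in Watson-Crick pairing with miR398b and miR398c in capitals. In CSD1 it lies in the 5′ UTR across an intron (TAIR10.1, chr1:2827177-2827685, plus strand) and has 17 of 21 bases paired. The site in CCS lies in the coding sequence (chr1:4267521-4267541, minus strand) with 15 bases paired and 1 G-U pair. That in CSD2 also lies in the coding sequence (chr2:12015572-12015592, plus strand), with 13 bases paired and 3 G-U pairs.

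CSD1 site: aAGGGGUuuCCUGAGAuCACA
CCS site: auuGGGaGACCUGgGAACACu
CSD2 site: ugcGGGUGACCUGgGAAacau

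By the same pairing score, a site as good as that of CSD1 was found in 7 of 19601 genes scanned, one as good as that of CCS in 334 genes (1.70%), and one as good as that of CSD2 in 13.2%. By this score, which allows no gap or bulge, the match in CSD2 is common among transcripts. Pairing with a gap or bulge was not scored, so how common such a site would be was not tested. AT3G15640, which background work also names as a target of miR398, had a site in its 5′ UTR with the same score as that of CCS. AT3G15640 was not called (log2 change 0.06, SE 0.13, adjusted p = 0.92).

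Promoters of ZIP2 and YSL2 each hold 3 copies of GTAC within the 250 bases before the annotated gene start. They are printed because they had the most copies in those 250 bases among the 5 genes FSD1, CCH, ZIP2, YSL2 and COPT2. These genes were chosen after their values were seen. The ZIP2 window is chr5:23992909-23993158 on the minus strand, and the YSL2 window is chr5:8323645-8323894 on the plus strand, both in TAIR10.1, with GTAC in capitals.

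ZIP2 promoter: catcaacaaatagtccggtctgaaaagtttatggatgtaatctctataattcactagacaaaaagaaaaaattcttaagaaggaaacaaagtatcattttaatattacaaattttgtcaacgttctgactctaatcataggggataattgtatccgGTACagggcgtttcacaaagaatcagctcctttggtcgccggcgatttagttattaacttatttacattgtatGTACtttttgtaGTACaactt
YSL2 promoter: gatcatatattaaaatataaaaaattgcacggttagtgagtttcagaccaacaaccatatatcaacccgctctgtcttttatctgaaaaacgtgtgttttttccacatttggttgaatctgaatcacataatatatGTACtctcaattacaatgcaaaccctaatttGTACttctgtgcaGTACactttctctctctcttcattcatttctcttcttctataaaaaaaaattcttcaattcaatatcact

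The copies begin at positions -94, -21 and -9 in ZIP2 and at -114, -83 and -70 in YSL2, counted from the gene start. GTAC reads the same on both strands. In the window from 250 bases before to 50 bases after the gene start, 39.4% of 19600 tested genes had at least 1 copy and 2.07% had at least 3. In that longer window ZIP2 and CCH had 4 copies each, YSL2 had 3, and FSD1 and COPT2 had 1 each.

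FSD1 (AT4G25100, chr4:12884300-12887011) stood at 7337 and 6996 normalised reads in the libraries WT 6 h A and B and at 3768 and 3713 in WT 8 h A and B. The hours were far apart against the spread within each pair. FSD1 fell by 0.94 on the log2 scale (SE 0.08, adjusted p = 6.9e-05), a 1.92-fold lower level. It passed the test with each of the 4 libraries left out in turn, with an adjusted p of at most 0.0033. The other 2 iron superoxide dismutases did not pass. FSD2 had a log2 change of -0.16 and FSD3 of 0.01, with adjusted p values of 0.70 and 0.99.

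CSD2 (AT2G28190, chr2:12014412-12016569), the chloroplast copper/zinc enzyme, had 2502 and 1853 normalised reads at 6 h and 5837 and 6184 at 8 h. Both 8 h libraries were far above both 6 h libraries, which differed from each other. The log2 change of CSD2 was 1.48 (SE 0.15, adjusted p = 0.0022), and the call was lost without WT 8 h A (adjusted p = 0.081). CSD1 (AT1G08830, chr1:2827060-2829315), the cytosolic enzyme, had 2835 and 2466 normalised reads at 6 h and 4309 and 4424 at 8 h. Its log2 change was 0.72 (SE 0.11, adjusted p = 0.014), and this call was lost with WT 6 h B, WT 8 h A or WT 8 h B left out (adjusted p = 0.34, 0.25 and 0.053). CSD1 overlaps emb2411, a DNA replication helicase gene on the other strand that was also called (log2 change 0.56, adjusted p = 0.020), but its call was lost when WT 6 h A, WT 6 h B or WT 8 h A was left out (adjusted p = 0.11, 0.36 and 0.37). Strand is not stated for these libraries, so the reads of the overlapping pair cannot be told apart.

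CCS (AT1G12520, chr1:4267074-4268982) had 1412 and 1169 normalised reads at 6 h and 2524 and 2648 at 8 h. CCS rose by a log2 change of 1.01 (SE 0.10, adjusted p = 4.6e-04) and passed with each of the 4 libraries left out in turn, with an adjusted p of at most 0.016. The peroxisomal copper/zinc enzyme CSD3 and the manganese enzyme MSD1 did not pass (log2 change 0.11 and -0.07). The miR398 precursor that could be tested, MIR398c, showed 535 and 474 normalised reads at 6 h and 550 and 481 at 8 h. Its pairs overlapped, with a log2 change of 0.03 (SE 0.17, adjusted p = 0.97). The precursors MIR398a and MIR398b had 0 to 5 reads a library and were not tested, and libraries made from poly-A RNA do not measure the mature microRNA.

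The transporters ZIP2, YSL2 and COPT2 and the chaperone CCH fell. ZIP2 (AT5G59520, chr5:23991213-23992908), a metal ion transporter annotated as regulated by copper, had 984 and 923 normalised reads at 6 h and 483 and 501 at 8 h. ZIP2 fell by 0.95 on the log2 scale (SE 0.12, adjusted p = 0.0034). YSL2 (AT5G24380, chr5:8323895-8326705), a relative of the maize metal-nicotianamine transporter YS1, had 242 and 296 normalised reads at 6 h and 134 and 136 at 8 h, and fell by 0.98 (SE 0.12, adjusted p = 0.0021). CCH (AT3G56240, chr3:20863139-20864727), a copper chaperone, had 3260 and 3657 normalised reads at 6 h and 2177 and 2187 at 8 h, and fell by 0.66 (SE 0.08, adjusted p = 0.0022). COPT2 (AT3G46900, chr3:17268700-17269510), a high-affinity copper transporter, had 50.2 and 69.4 normalised reads at 6 h and 20.08 and 24.93 at 8 h. Its log2 change was -1.36 (SE 0.25, adjusted p = 0.027). These 4 calls were lost with either WT 6 h B or WT 8 h A left out (adjusted p from 0.065 to 0.51), and that of COPT2 also with WT 6 h A left out (0.058).

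Other genes of metal handling were called in either direction. FER1, a plastid ferritin that stores iron, had 2330 and 2140 normalised reads at 6 h and 4163 and 4044 at 8 h, a log2 change of 0.88 (SE 0.09, adjusted p = 5.7e-04). The antisense locus AT5G01595 covers FER1 and gave nearly the same values, so the 2 called loci are 1 observation. FRD3, a citrate exporter, fell by 0.63 and LAC11, a laccase, fell by 0.64, a call lost with the 4 WT libraries fitted alone (adjusted p = 0.062). MTP11, a manganese transporter, rose with a log2 change of 0.54, and ABCI8, annotated with iron-sulfur cluster assembly, with one of 0.45. The regulator SPL7 had 523 and 552 normalised reads at 6 h and 535 and 541 at 8 h, a log2 change of 0.00 (adjusted p = 0.999). The pumps PAA1, PAA2 and HMA5, the chaperone ATX1 and the transporters COPT1 and COPT5 had log2 changes from -0.14 to 0.09, none of which passed. COPT6, MIR408, ARPN, PETE1 and the laccase genes LAC3, LAC4, LAC13 and LAC17 did not pass either. Not tested were MIR397a (authors' mean 9.12 at 6 h and 24.8 at 8 h), FRO5 (2.43 and 0.44) and PETE2 (60930 and 50567). FRO4, a metal reductase, had the most negative log2 change of all tested genes, -2.96, with an SE of 0.68 and an adjusted p of 0.15.

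The metal calls differed in how far they rested on single libraries. Of CCH, ZIP2, YSL2, COPT2, CSD1, FRD3, LAC11, MTP11 and ABCI8, the number that still passed was 4 with WT 6 h A left out, 0 with either WT 6 h B or WT 8 h A left out, and 7 with WT 8 h B left out. The adjusted p values of those that missed ranged from 0.065 to 0.67 without WT 6 h B and from 0.066 to 0.60 without WT 8 h A. In the list of mineral nutrition genes 22 of 26 members were tested, of which 3 were called higher (FER1, CSD1 and CSD2), against 0.203% of all genes, and 3 lower (FSD1, CCH and COPT2), against 0.208%. The median of that list was a log2 change of -0.09, against 0.01 over all genes. Iron-deficiency regulators of the same list were uneven within WT 6 h. BHLH100 had 28.4 and 166 normalised reads in WT 6 h A and B and 41.9 and 43.1 at 8 h, and the iron reductase gene FRO2 had 240 and 456 at 6 h and 390 and 376 at 8 h.

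**Figure D2:**
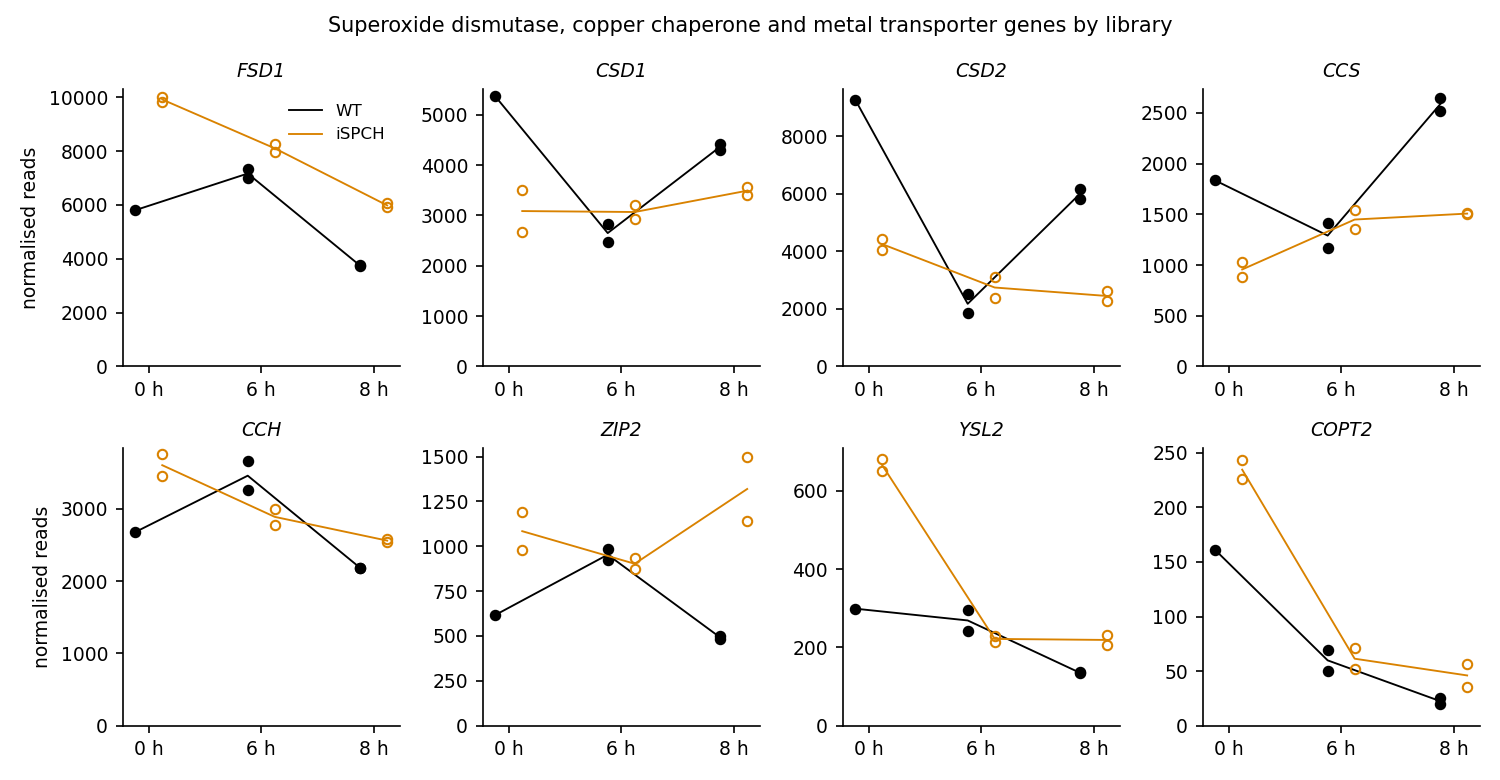
Normalised reads of 8 metal-related genes (vertical axis, from 0) at 0 h, 6 h and 8 h, with 1 point per library and lines through the group means. WT is filled black and iSPCH open orange. In WT, CSD1, CSD2 and CCS go up and FSD1, CCH, ZIP2, YSL2 and COPT2 go down from 6 h to 8 h. The levels of the lines differ already at 0 h.

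The iSPCH seedlings, whose libraries enter the WT comparison only through the shared estimate of spread, differed from WT in the change over the same hours for 5 of these 8 genes. CSD2 had 3103 and 2385 normalised reads in iSPCH at 6 h and 2268 and 2630 at 8 h, a log2 change of -0.16 (adjusted p = 0.63). The WT change exceeded the iSPCH change by 1.64 (SE 0.21, adjusted p of the difference = 0.0044). CCS had a log2 change of 0.06 in iSPCH, and the difference between lines was 0.95 (adjusted p = 0.0043). ZIP2 rose in iSPCH, from 934 and 871 normalised reads to 1496 and 1143, a log2 change of 0.54 (adjusted p = 0.014), so that the lines moved in opposite directions and differed by -1.49 (adjusted p = 8.4e-04). YSL2 had a log2 change of -0.02 in iSPCH and a difference of -0.96 (adjusted p = 0.0097). FSD1 fell in iSPCH as well, by 0.44 (adjusted p = 0.0022), with a difference of -0.50 (adjusted p = 0.034). For CSD1, CCH and COPT2 the difference did not pass (adjusted p = 0.18, 0.067 and 0.34). The lines also had different levels before treatment. CSD2 stood at 9277 normalised reads in the single untreated WT library and at 4060 and 4444 in untreated iSPCH. FSD1 stood at 5805 in untreated WT and at 9994 and 9842 in untreated iSPCH.

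The genes with the largest changes among those not described above had varied or unknown roles. GLYI7 (AT1G80160, chr1:30150897-30152614), of the glyoxalase I family that removes methylglyoxal, had 630 and 605 normalised reads at 6 h and 1414 and 1354 at 8 h. The pairs were tight and far apart, with a log2 change of 1.16 (SE 0.10, adjusted p = 1.3e-04), and the gene passed with each library left out in turn (adjusted p of at most 0.012). It had 13.9 normalised reads in untreated WT. In iSPCH its log2 change was 0.27, and the difference between the lines was 0.89 (adjusted p = 0.0069). GLYI7 overlaps AT1G80165 on the other strand.

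CBSX5, a protein with cystathionine beta-synthase domains, had 141 and 121 normalised reads at 6 h and 388 and 300 at 8 h, a log2 change of 1.38 (SE 0.20, adjusted p = 0.0060). ACD6, an ankyrin-repeat membrane protein of salicylic-acid-linked defence, had 25.6 and 29.2 normalised reads at 6 h and 78.6 and 54.4 at 8 h, a log2 change of 1.23 (adjusted p = 0.031). ACD6 rose in iSPCH too, with a log2 change of 2.55. Log2 changes from 0.75 to 0.90 were found for OCT2, an organic cation/carnitine transporter, AT1G66180, an aspartyl protease, AT2G46600, a calcium-binding EF-hand protein, AT3G13760, a C1-domain protein, and AT14A. The 2 AT14A loci, AT3G28290 and AT3G28300, are copies with identical values and count as 1 observation.

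Among the falling genes AT4G11190, of the dirigent-like family, had 132 and 141 normalised reads at 6 h and 29.7 and 36.3 at 8 h, a log2 change of -2.02 (SE 0.25, adjusted p = 0.0021). In iSPCH it fell by 2.37. AT2G30766, annotated in TAIR10.1 only as an uncharacterised protein, overlaps 2 genes on the other strand. It had 72.0 and 141 normalised reads at 6 h and 26.2 and 37.4 at 8 h, a log2 change of -1.66 (SE 0.30, adjusted p = 0.031). Its place here does not mean that it has no part in metal handling. AT3G45070, a sulfotransferase acting on flavonoids, fell from 88.1 and 88.5 normalised reads to 42.8 and 38.5, and IGMT5, an O-methyltransferase, fell by 0.92. KIN2, a cold- and abscisic-acid-induced gene, fell by 0.76, AT4G38950, a microtubule motor, by 0.69, and AT3G48420, a haloacid dehalogenase-like hydrolase, by 0.68. AT2G25625 had a log2 change of -2.12 (adjusted p = 0.025) at a low level, with 27.5 and 17.1 normalised reads at 6 h and 5.24 and 3.40 at 8 h. It missed the minimum level set for named genes and is given because its change differed between lines by -2.78 (adjusted p = 0.017).

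Of these 15 loci, CBSX5 to AT3G48420 without AT2G25625, 5 still passed with WT 6 h A left out, 0 with either WT 6 h B or WT 8 h A left out and 13 with WT 8 h B left out. Adjusted p values reached 0.50 without WT 6 h B and 0.54 without WT 8 h A. AT2G25625 missed the threshold with each of the 4 libraries left out in turn, with an adjusted p of at most 0.24.

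**Figure D3:**
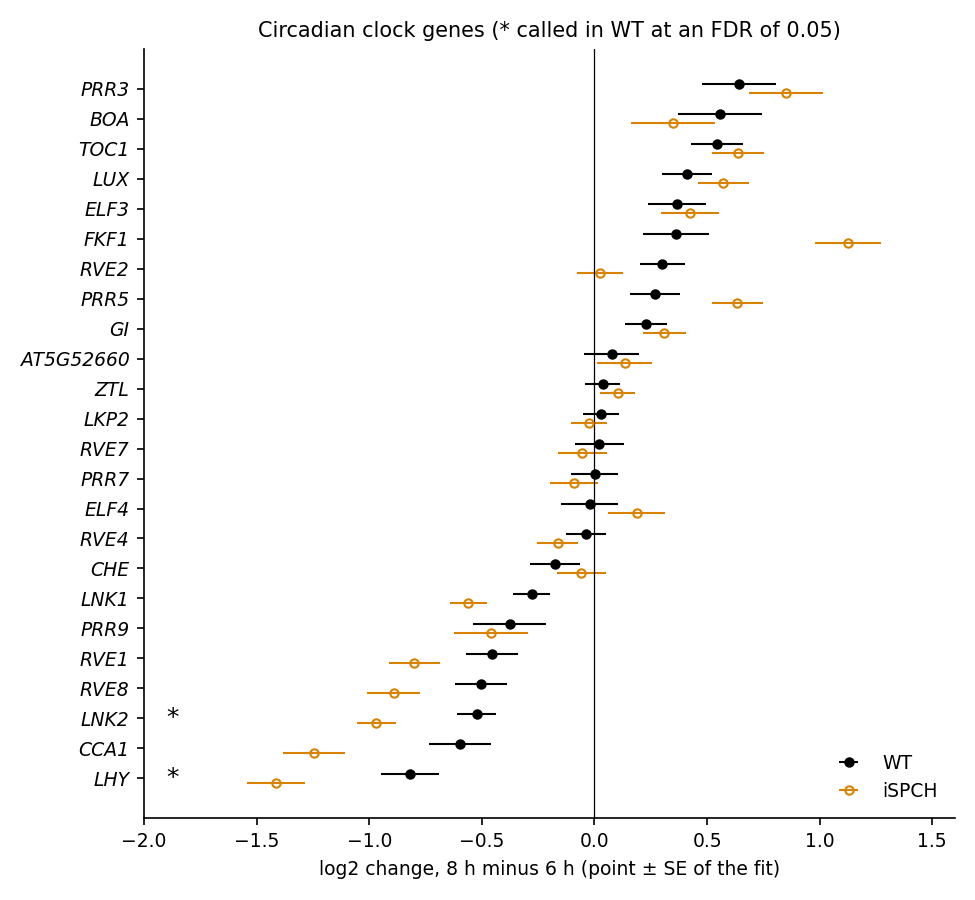
Log2 change from 6 h to 8 h of the 24 clock genes (points, with the SE of the fit as bars) in WT (filled) and iSPCH (open). Asterisks mark the 2 genes called in WT, LHY and LNK2. LHY and CCA1 have the lowest values in both lines, and PRR3 and TOC1 lie right of 0 in both.

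The genes of the clock list had small changes in WT, of which 2 of 24 passed, both lower, against 0.208% of all genes. LHY, a morning transcription factor, had 1161 and 1205 normalised reads at 6 h and 557 and 806 at 8 h. The 8 h libraries were both lower but apart from each other, and LHY fell by 0.82 (SE 0.13, adjusted p = 0.022), a call lost with the 4 WT libraries fitted alone (adjusted p = 0.071). LNK2, a coactivator of the RVE transcription factors, had 8634 and 7920 normalised reads at 6 h and 5602 and 5904 at 8 h, and fell by 0.52 (SE 0.09, adjusted p = 0.018). LNK2 overlaps other genes on the opposite strand. CCA1, the close relative of LHY, had 808 and 818 normalised reads at 6 h and 446 and 647 at 8 h, with a log2 change of -0.60 that did not pass (adjusted p = 0.092).

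TOC1, the evening repressor of CCA1 and LHY, had 2447 and 2163 normalised reads at 6 h and 3863 and 2917 at 8 h, with a log2 change of 0.54 that missed the threshold (adjusted p = 0.066). PRR3 and LUX had log2 changes of 0.64 and 0.41, and RVE8 and RVE1 of -0.50 and -0.45. At an unadjusted p under 0.05 there were 9 clock genes higher and 7 lower, against 4.99% and 5.42% of all genes. The list's median was a log2 change of 0.03. All 24 clock genes had enough reads to be tested.

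In iSPCH 11 of the 24 clock genes passed, 5 higher and 6 lower, against 3.97% and 3.62% of all genes. The sign was the same as in WT in 20 of the 24, against 61.3% of all genes. LHY fell there by 1.41 and LNK2 by 0.97, TOC1 had a log2 change of 0.64 (adjusted p = 0.0041), and the difference between lines did not pass for LHY, LNK2, TOC1 or CCA1 (lowest adjusted p = 0.13, for LNK2). Among genes outside the list, COL9, a CONSTANS-like protein, rose with a log2 change of 0.58 and JMJD5, a jumonji-domain protein, with one of 0.69. BBX28, a B-box zinc finger protein, fell by 0.55. AT3G12320, annotated in TAIR10.1 only as an uncharacterised protein, fell by 0.93, from 358 and 396 normalised reads to 172 and 228. Being outside the list does not mean that these 4 genes have no part in the clock. All 4 passed in the same direction in iSPCH. Of LHY, LNK2, COL9, JMJD5, BBX28 and AT3G12320, 1 still passed with WT 6 h A left out, 0 with either WT 6 h B or WT 8 h A left out and 5 with WT 8 h B left out, and adjusted p values reached 0.48. The list of clock output and day length held 12 genes. Of these 0 passed in limma-trend, 0 by edgeR and 4 by DESeq2, against 81, 153 and 181 of all 19681 tested genes. At an unadjusted p under 0.05 there were 7, 2 higher and 5 lower, against 4.99% and 5.42% of all genes. Nearest to the threshold were COL1 (log2 change -0.55, adjusted p = 0.081) and CDF3 (-0.37, adjusted p = 0.092).

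Genes of carbon and nitrogen use were among those that rose. Of the 24 genes of the sugar starvation list 20 were tested and 1 was called higher, against 0.203% of all genes. That gene was GDH1, a mitochondrial glutamate dehydrogenase. GDH1 had 7327 and 6354 normalised reads at 6 h and 11948 and 9475 at 8 h, a log2 change of 0.64 (SE 0.11, adjusted p = 0.022). BCAT2, of branched-chain amino acid breakdown, had a log2 change of 0.65 that missed the threshold (adjusted p = 0.057), as did PRODH1, proline dehydrogenase, with 0.51 (adjusted p = 0.092). At an unadjusted p under 0.05 there were 8 members higher and 1 lower, against 4.99% and 5.42% of all genes. The median over the list was a log2 change of 0.23, against 0.01 over all genes. For the abundant members DIN1, ASN1 and DIN10, whose reads could not be split between libraries, the ratio of the authors' mean at 8 h to that at 6 h was 1.37, 1.29 and 1.13.

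Called genes outside that list included GAT1_2.1, a glutamine amidotransferase-like protein that nitrogen regulates, with 1992 and 1727 normalised reads at 6 h and 3661 and 2852 at 8 h (log2 change 0.80, adjusted p = 0.022). ASPGB1, an asparaginase, had a log2 change of 0.83, AGT3, an aminotransferase, of 0.61, TMT1, a vacuolar sugar transporter, of 0.60, AAE17, an acyl-activating enzyme, of 0.58, and ICL, the isocitrate lyase of the glyoxylate cycle, of 0.53. In the nitrate list 1 of 10 tested members was called higher, against 0.203% of all genes. This was the transporter NRT1.1, with 2674 and 2493 normalised reads at 6 h and 3601 and 3796 at 8 h (log2 change 0.52, adjusted p = 0.015). Of these 8 called genes, 1 still passed with WT 6 h A left out, 0 with either WT 6 h B or WT 8 h A left out and 6 with WT 8 h B left out, and adjusted p values reached 0.56. The difference between lines did not pass for any of the 8 (lowest adjusted p = 0.12, for GDH1). CAT3 and TPX2, enzymes that break down peroxides, rose as well. The catalase CAT3 had 19229 and 18624 normalised reads at 6 h and 30009 and 29593 at 8 h (log2 change 0.66, adjusted p = 0.0022), and the thioredoxin-dependent peroxidase TPX2 had a log2 change of 0.60 (adjusted p = 0.014). Neither passed without WT 6 h B (adjusted p = 0.11 and 0.39) or without WT 8 h A (0.066 and 0.26).

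The genes that fell included 8 for chloroplast proteins, grouped here after their values were seen. The 8 need not be all such genes that fell, and the share of chloroplast proteins over all tested genes was not counted. Other genes for chloroplast proteins, among them CSD2 and FER1, rose. NPQ4, the PsbS protein that quenches excess light energy, had 12478 and 12895 normalised reads at 6 h and 6746 and 8845 at 8 h, and fell by 0.72 (SE 0.13, adjusted p = 0.037). ROC4, a cyclophilin of the chloroplast stroma, had 9038 and 9897 normalised reads at 6 h and 5126 and 6843 at 8 h, and fell by 0.68 (adjusted p = 0.025). ZKT, a PDZ-domain protein, fell by 0.64, LQY1, of photosystem II repair, by 0.61, and BETA-OHASE 2, a beta-carotene hydroxylase, by 0.60. JAC1, which chloroplasts need for their accumulation response to light, fell by 0.54, and the plastid ribosomal proteins PRPL11 and PRPL35 by 0.51 and 0.48. All 8 also fell in iSPCH, where 61.3% of all tested genes had the same sign as in WT. BETA-OHASE 2 fell there by 1.49, more than in WT, with a difference of 0.89 (adjusted p = 0.0043).

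Of these 8 genes, 1 still passed with WT 6 h A left out, 0 with either WT 6 h B or WT 8 h A left out and 7 with WT 8 h B left out, and adjusted p values reached 0.63. The photosynthesis list had 9 tested members of 24. Its calls were 0 by limma-trend, 0 by edgeR and 2 by DESeq2, against 81, 153 and 181 of all 19681 genes. At an unadjusted p under 0.05 there were 5 lower and 1 higher, against 5.42% and 4.99% of all genes. For 14 abundant members, which include light-harvesting and Rubisco genes, reads could not be split between libraries in at least 1 of the 6 groups. These members were not tested. The authors' mean was lower at 8 h than at 6 h in 13 of these 14, with a median ratio of 0.84. It was lowest for RCA, Rubisco activase, at 0.66, and above 1 for LHCB1.3 alone, at 1.03. These ratios were given no error, although the reads of some of these members were settled within WT. RCA had 54072 and 52450 reads, before scaling for depth, in WT 8 h A and B. Near-identical LHCB copies may share reads. Summed over 22 detected of 24 members, the list made up 102500 and 104400 CPM at 6 h and 92610 and 96550 CPM at 8 h. Where reads could not be split, each library was given the group mean scaled by its size factor. Agreement of these sums within a pair is therefore partly built in. The part of the sums in the falling chloroplast genes was not tested.

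**Figure D4:**
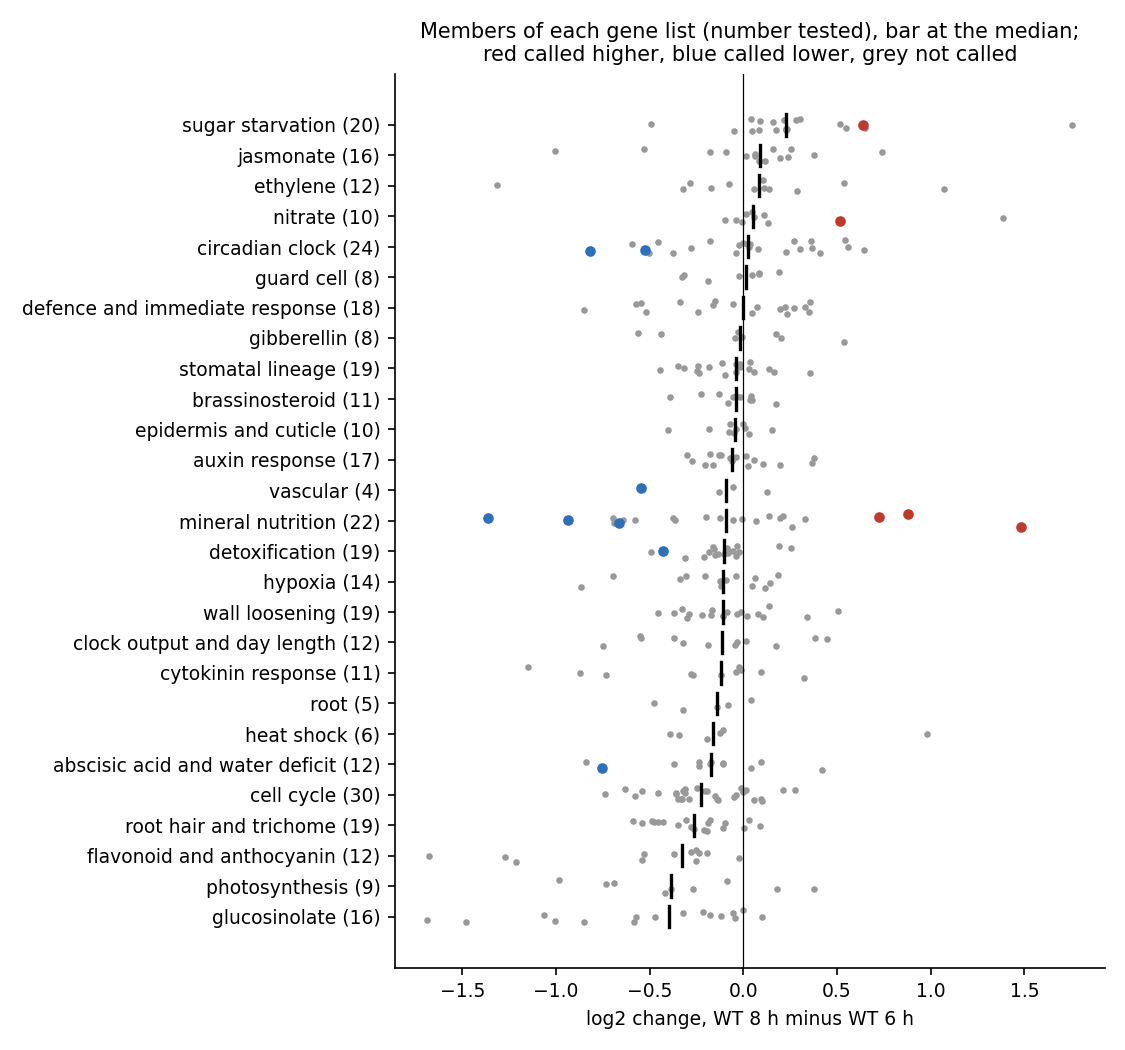
Log2 change from WT 6 h to WT 8 h (horizontal axis) of every tested member of 27 gene lists, with the number tested in brackets and a bar at each median. Points are red where called higher, blue where called lower and grey otherwise. The mineral nutrition list holds 6 of the calls, 3 on each side of 0.

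Across the 27 lists 13 of 383 tested genes were called, against 0.412% of all genes, in 7 lists, and 20 lists had no call by limma-trend. In those 20, edgeR called 0 and DESeq2 7 of 272 tested genes, against 153 and 181 of all 19681. The single calls not yet described were GSTU8, a glutathione transferase of the detoxification list (log2 change -0.43), and XCP1, a xylem protease of the vascular list (-0.55), which overlaps a gene on the other strand. GSTU8, XCP1 and KIN2 passed with WT 8 h B left out and were lost when any other of the 4 libraries was left out (adjusted p from 0.058 to 0.60), and GSTU8 and XCP1 were also lost with the 4 WT libraries fitted alone (0.052 and 0.062). KIN2 was the call of the list of abscisic acid and water deficit, where RD26 had a log2 change of -0.37 (adjusted p = 0.088). In the stomatal lineage list 0 of 19 were called in WT, with a median of -0.04, while 10 were called higher in iSPCH, where 3.97% of all genes were. The lists of auxin response, brassinosteroid and guard cell genes also had no call and 0 to 1 members at an unadjusted p under 0.05. The cell cycle list had no call among 30 genes, a median of -0.22 and 9 members lower at an unadjusted p under 0.05, such as CDKB2;1 (log2 change -0.36, adjusted p = 0.19). Over all genes 9363 of 19681 had a negative value, and 5.42% were lower at an unadjusted p under 0.05. The flavonoid and anthocyanin list had 0 calls, with all 12 tested members at a negative value, 4 of them at an unadjusted p under 0.05, and a median of -0.33. That of glucosinolate genes had 15 of 16 tested members below 0, 1 of them at an unadjusted p under 0.05, and a median of -0.40. Fewer cells of a type and less RNA per cell cannot be told apart in RNA of whole seedlings.

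Markers of the cell types that whole seedlings hold were present in all 4 libraries. Guard cell markers summed to 1833 and 1771 CPM at 6 h and 1894 and 1867 at 8 h, and epidermis markers to 1184 and 1189 at 6 h and 1148 and 1164 at 8 h. Root markers, 3 of 5 detected, summed to 74.0 and 73.7 CPM at 6 h and 67.0 and 67.7 at 8 h, and markers of root hairs and trichomes, 14 of 20 detected, to 112 and 111 at 6 h and 97.7 and 108 at 8 h. FRD3, which fell, is annotated as expressed in roots. Vascular markers, 4 of 5 detected, summed to 153 and 152 at 6 h and 146 and 168 at 8 h. The part of the markers in these results was not tested. Assigned reads were 25274440 and 23327067 in WT 6 h A and B and 27057452 and 20448875 in WT 8 h A and B. Libraries of a pair differed by 1.83 times the sampling variance at 6 h and 2.804 times at 8 h. The first principal component (50% of the variance) placed WT 6 h A and B at -9.02 and -21.7. It placed WT 8 h A and B at 26.8 and 3.97, so the 8 h pair was apart on it. On the second (27.2%) WT 8 h B stood apart from the other 3 WT libraries. In 69 of the 81 called genes WT 8 h A lay further from the 6 h libraries than WT 8 h B.

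The promoter motifs searched on both strands, in the 250 bases before to 50 bases after the gene start, were described as shares with no test. The evening element AAATATCT was found in 10.0% of promoters of higher genes, 4.9% of lower genes and 5.8% of all tested genes, and the CCA1-binding site AAAAATCT in 7.5%, 9.8% and 8.0%. The G-box CACGTG was found in 7.5% of higher, 17.1% of lower and 8.6% of all, and the abscisic acid element core ACGTGNC, which can overlap a G-box, in 17.5%, 19.5% and 11.4%. The sugar-repressed element TTATCC was found in 6 of 40 higher genes, 19.5% of lower genes and 15.6% of all, and GTAC in 37.5%, 48.8% and 39.4%.

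**Figure D5:**
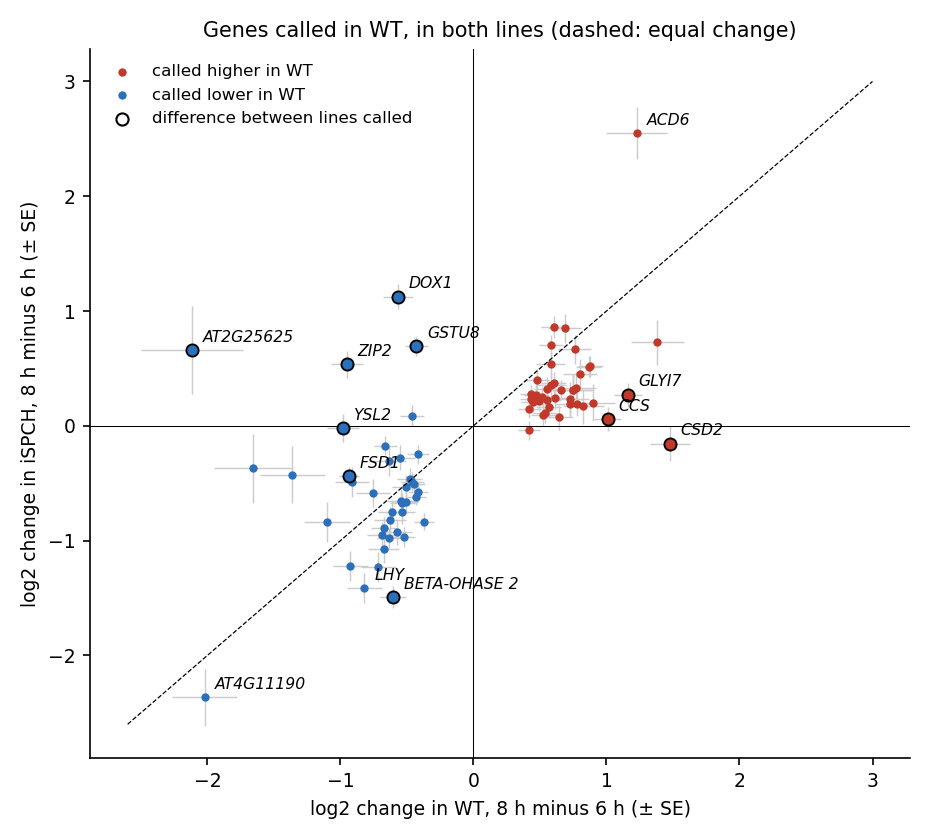
Of the 81 genes called in WT, the 80 reported here, by their log2 change from 6 h to 8 h in WT (horizontal axis) and in iSPCH (vertical axis), with SE bars. Red genes were called higher and blue genes lower in WT, and 10 outlined genes had a called difference between lines. Most points lie in the quadrants of equal sign, and CSD2 and ZIP2 do not.

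Over the same hours in iSPCH 1494 genes were called (7.59%), 782 higher (3.97%) and 712 lower (3.62%). Scaled by library size, the split was 1035 higher and 586 lower. The count was 845 without iSPCH 8 h A and 758 without iSPCH 8 h B. Of the 81 genes called in WT, 73 had the same sign in iSPCH, 38 of the 40 higher and 35 of the 41 lower, where 61.3% of all tested genes had it. In iSPCH 40 of the 81 were called in the same direction, 12 higher and 28 lower. The WT and iSPCH pairs share no library. The difference between the lines' changes was called for 220 genes (1.12%), 11 of which were among the 81. They included FSD1, CSD2, CCS, ZIP2, YSL2, GLYI7, BETA-OHASE 2, AT2G25625, DOX1 and GSTU8. The 81 were chosen by their WT change, which also enters the difference. For all 220, leaving out WT 6 h A gave 106 and leaving out WT 6 h B gave 114, while WT 8 h A or iSPCH 8 h A left out gave 136 or 126.

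Called in opposite directions were ZIP2, DOX1 and GSTU8. DOX1, an alpha-dioxygenase that pathogens and oxidative stress induce, had 7835 and 7928 normalised reads in WT at 6 h and 4708 and 6012 at 8 h, and fell by 0.57 (adjusted p = 0.039). This call was lost with no filter on low reads (adjusted p = 0.081) and without robust variances (0.059). In iSPCH it went from 6813 and 6072 normalised reads to 15067 and 13072, a log2 change of 1.13 (adjusted p = 4.5e-05), and the difference was -1.69 (adjusted p = 2.5e-04). GSTU8 had a log2 change of 0.69 in iSPCH and a difference of -1.12 (adjusted p = 6.8e-04). DOX1 and GSTU8 passed in WT with WT 8 h B left out and were lost when any other of the 4 libraries was left out, where adjusted p values ranged from 0.20 to 0.60.

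The remaining 21 called genes had smaller or less characterised changes, 11 higher with log2 changes from 0.42 to 0.72 and 10 lower with log2 changes from -0.58 to -0.37. They include AT4G33670, an L-galactose dehydrogenase of ascorbate synthesis, MPK17, a MAP kinase, and CYP87A2, a cytochrome P450. Of all 81 called genes 32 overlap another gene, so that their reads may be shared. Of those described above these are GLYI7, FER1 with AT5G01595, YSL2, CSD1 with emb2411, AT4G33670, ABCI8, LAC11, IGMT5, AT3G48420, AT2G46600, AT2G30766, AT3G12320, LNK2, TMT1, GDH1, GAT1_2.1, TPX2, ZKT, LQY1, JAC1, ROC4, BETA-OHASE 2 and XCP1.

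Levels before treatment, in the single untreated WT library, are given for some of these genes. LHY had 5638 normalised reads and TOC1 778 there, against a range of 1161 to 1205 and of 2163 to 2447 at 6 h. GDH1 had 781 and GAT1_2.1 had 125 normalised reads untreated, both below all 4 treated WT libraries. NPQ4 had 45971 and ROC4 19528, both above all 4. CSD1, CSD2 and CCS had 5369, 9277 and 1835 normalised reads untreated, so that their level at 6 h lay below the untreated one in both libraries. These untreated values have no replicate.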

How the data were processed

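Poly-A RNA was sequenced from TruSeq libraries, per the labels' protocols. CASAVA 1.8, TopHat, DESeq and the TAIR10 genome are named, without roles, in the submitters' processing notes. No source used here names the counting tool or its strand setting. The deposited signal is the authors' mean normalised read count per group, for 33602 genes and 6 groups. Every mean, 100.0% of them, was a sum of whole reads of its libraries within the rounding of the last printed digit. Reads per library were settled in all 6 groups for 33505 genes. The other 97 genes, all with a highest group mean of at least 11245, hold 29.0% of the reads of WT 6 h and 8 h and were not tested. Where several pairs of reads gave a mean, pairs within 2-fold were taken. Where more than 1 pair remained, each library was given the mean scaled by its size factor, and such genes were not tested.

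Reads of each library were scaled by the size factor implied by the authors' steps. log2 of the value plus 1 was fitted with limma 3.58.1 (limma-trend, robust, R 4.3.3) over all 11 libraries, for genes that reached a CPM of 1 in 2 or more libraries, at a Benjamini-Hochberg FDR of 0.05. Fold changes on this scale understate those of low genes. The count test of edgeR 4.0.16 on the recovered reads called 153 genes, and DESeq2 1.42.0 was another alternative. The fit and the recovery were tested on simulated data. Depth was 15542871 to 32807092 assigned reads a library.

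The comparison and gene lists were chosen with earlier results of these data known. Named genes were the 15 higher and 15 lower with the largest change, with both 8 h libraries beyond both 6 h libraries and a CPM averaging 2 or more in the group where the gene is higher, the 5 with the smallest p in each direction, up to 4 members of a list and up to 5 a direction with a called difference between lines. The other called genes, the metal genes outside the lists, the grouping by role, the miR398 sites and GTAC were chosen after values were seen. Names and positions come from RefSeq's TAIR10.1 annotation, which matched 32823 loci; 779 were not matched. The table holds no coordinates. The values of 1 called gene are not reported here. Copies were sought with BLAST+ (at least 95% identity over 100 bases): 3 called genes have one, and 32 overlap another gene.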

Additional observations from a re-analysis of the deposited data

Results flagged for a closer look

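Each result here was picked out because the change from 6 h to 8 h differed between the lines in a test of the difference itself (limma-trend, adjusted over 19681 genes). Values are the WT change minus the iSPCH change on the log2 scale, and no cause was tested. Among genes called in WT the difference was -1.69 for DOX1, -1.12 for GSTU8, -1.49 for ZIP2, -0.96 for YSL2, -2.78 for AT2G25625 and -0.50 for FSD1. It was 0.95 for CCS, 0.89 for BETA-OHASE 2, 1.64 for CSD2 and 0.89 for GLYI7.

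The next 10 genes were not called in WT. EXP7 (difference 2.38), an expansin of root hairs, had 118 and 120 normalised reads at 6 h and 85.5 and 83.9 at 8 h in WT, and 79.6 and 32.2 at 6 h and 5.32 and 6.92 at 8 h in iSPCH. COBL9 (2.31) and LRL3 (2.15), which act in root hair growth, AT2G34910 (2.095) and AT1G30870 (2.49) likewise fell in iSPCH. CYP71A12 (-5.53), a cytochrome P450 of camalexin synthesis, had 3.79 and 10.06 normalised reads at 6 h in WT and 3.491 and 4.53 at 8 h, and 2.36 and 1.40 at 6 h and 240 and 32.3 at 8 h in iSPCH, where the libraries were far apart. AT1G26380 (-5.46), AT1G26410 (-5.17), the transcription factor NAC042 (-3.63) and AT5G57010 (-3.14) likewise rose in iSPCH.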

How the results depend on the processing

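The WT count of 81 genes was 37 with no filter on low reads, 153 with edgeR, 181 with DESeq2, 156 with the 4 WT libraries fitted alone and 10 with a change of at least 2-fold. edgeR called 81 of the 81, DESeq2 78 and the fit of 4 libraries 76. Without 1 replicate the count ranged from 5 to 145. The iSPCH count of 1494 was 850 with the compared groups alone and 278 with a change of at least 2-fold, and ranged from 758 to 1310 without 1 replicate. The count of differences between lines, 220, was 114 with a change of at least 2-fold and ranged from 106 to 326 without 1 replicate. The 13 calls within the gene lists were 25 with DESeq2 and ranged from 2 to 24 without 1 replicate. The cause of these shifts was not tested. Other added counts, scalings and filters kept each count within 1.5 times, and no named gene changed direction while called. Of the 81 genes, 44 were no longer called with no filter, 20 without robust variances and 7 or fewer under each other setting that kept all 4 libraries, in part because a stricter filter did not test them.

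No paired analysis was possible because the deposited table carries no replicate numbers, so the recovered libraries cannot be matched to the numbers in the labels. With 2 libraries a group, genes of small change were near the limit of detection, and abundant genes whose reads could not be split were not tested.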
